A study of Mus musculus with 4 samples.

Results

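The enzymes that remove superoxide and peroxides, keep protein thiols reduced and make or use glutathione were followed in mouse pachytene spermatocytes treated with BMH21. Genes were taken by symbol: the glutathione transferases of the alpha, kappa, mu, omega, pi and theta classes, the glutathione peroxidases, the peroxiredoxins, symbols beginning with Txn, the superoxide dismutases, and Cat, Gsr, Gss, Gclc, Gclm, Glrx, Glrx2, Glrx3, Glrx5, Msrb1, Srxn1, Nqo1 and Hmox1. The rule reads symbols alone. Of the 15733 protein-coding genes in the table, 55 belonged to the set, and symbols of the set without a row, Hmox1 among them, were not analysed here.

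Suspensions of single mouse testicular cells were kept ex vivo for 12 h with 2.5 µM BMH21, a DNA intercalator used to inhibit RNA polymerase I, or with the solvent DMSO (mock). Flow cytometry with Hoechst, which stains DNA, was then used to collect pachytene spermatocytes, cells in the stage of meiotic prophase in which homologous chromosomes are synapsed, and their mRNA was sequenced. Each condition had 2 biological replicates. The agent was given to the whole suspension before sorting, and no age or strain of the animals was given in the sources used here.

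Superoxide dismutases turn superoxide into hydrogen peroxide, which catalase, glutathione peroxidases and peroxiredoxins reduce to water. Glutathione is made in successive steps by glutamate-cysteine ligase (Gclc, Gclm) and glutathione synthetase (Gss), and its oxidised form is recycled by glutathione reductase (Gsr). Thioredoxins and glutaredoxins reduce protein disulfides, and glutathione transferases attach glutathione to electrophiles. In many cell types the transcription factor NRF2 (Nfe2l2) with a small Maf partner activates a number of these genes through the antioxidant response element (ARE) in their regulatory regions, and in the testis several family members have forms made mainly in germ cells.

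The ARE is described for a number of these genes. A window of 300 bases around each start site, most of it upstream, was therefore searched for the ARE core TGACNNNGC on both strands. A RefSeq promoter on GRCm38.p6 was matched by symbol for 47 of the 55 genes, some with more than 1 start. The core was found in 9 of their 64 promoters (14.1%), in 4071 of all 32851 promoters of the same length (12.4%) and in 1874 of the 13427 promoters of tested genes (14.0%). The share among these antioxidant genes was thus near that of promoters in general. Of the 12 genes with a called change described below and a promoter in the table, 3 carried the core. By promoter this was 3 of 17 (17.6%), near the 14.0% among promoters of tested genes. The 3 promoters with the core are shown, with the matched core in capitals. They are Sod1 (chr16:90220512-90220811, plus strand), Gstm5 (chr3:107895604-107895903, plus strand) and Prdx1 (chr4:116685349-116685648, plus strand), read 5′ to 3′ from RefSeq.
Sod1: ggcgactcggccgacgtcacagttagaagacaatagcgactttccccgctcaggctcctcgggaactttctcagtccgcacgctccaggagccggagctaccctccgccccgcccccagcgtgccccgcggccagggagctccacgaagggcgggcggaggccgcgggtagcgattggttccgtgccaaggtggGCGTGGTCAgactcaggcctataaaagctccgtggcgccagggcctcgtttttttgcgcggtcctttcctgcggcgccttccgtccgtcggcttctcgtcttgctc
Gstm5: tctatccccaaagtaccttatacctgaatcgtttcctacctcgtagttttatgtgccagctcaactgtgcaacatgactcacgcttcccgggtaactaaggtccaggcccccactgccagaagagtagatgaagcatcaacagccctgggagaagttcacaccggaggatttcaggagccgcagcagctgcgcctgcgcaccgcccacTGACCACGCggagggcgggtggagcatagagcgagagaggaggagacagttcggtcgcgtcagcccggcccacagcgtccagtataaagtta
Prdx1: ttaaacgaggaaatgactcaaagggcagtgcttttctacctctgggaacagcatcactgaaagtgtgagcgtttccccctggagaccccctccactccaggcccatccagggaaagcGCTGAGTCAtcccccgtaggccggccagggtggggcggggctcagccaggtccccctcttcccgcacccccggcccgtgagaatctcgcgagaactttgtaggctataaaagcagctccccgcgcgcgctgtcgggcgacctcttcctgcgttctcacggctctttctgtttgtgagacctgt
The core began at base 195 of the Sod1 promoter, 209 of the Gstm5 promoter and 118 of the Prdx1 promoter, counted from 1 at the 5′ end. The capitals in Sod1 and Prdx1 spell the core on the opposite strand. The cAMP response element TGACGTCA, searched in the same way, occurred in 1 of the 64 promoters (1.56%), that of Txnl4b, against 1.79% of all promoters. A match marks letters in the window and shows no binding, and elements outside the window were not searched.

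Each of the 4 libraries had between 30964370 and 41548269 counts in total, of which the 55 genes took 0.472% to 0.479%. All 12 pachytene marker genes were in the table, with summed levels of 3405 to 3415 CPM (counts scaled to a common library size) in mock and 3440 to 3473 CPM in BMH21, led by Adam2 and Piwil1. Single markers differed, with 4 of the 12 called higher (33.3%, against 16.5% of all tested genes) and 5 lower (41.7%, against 12.5%). The 12 spermatid markers, led by Prm2 and Oaz3, summed to 355 to 357 CPM in mock and 367 to 372 CPM in BMH21. The 11 spermatogonium and early meiotic markers in the table, led by Id4 and Gfra1, summed to 60.9 to 61.2 CPM in mock and 55.8 to 61.6 CPM in BMH21. Of the 9 tested, 1 was called higher (11.1%), Sohlh2 with a log2 fold change of 3.28, and 3 lower (33.3%). Somatic markers were low. Sertoli markers (4 of 10 in the table, led by Dhh and Amh) summed to 6.59 to 8.37 CPM in mock and 6.79 to 7.94 CPM in BMH21. Leydig markers (4 of 8, led by Star and Insl3) summed to 9.13 to 9.60 CPM in mock and 6.55 to 7.29 CPM in BMH21, with Star called lower (log2 fold change -0.50). Peritubular myoid and endothelial markers (8 of 8, led by Tagln and Vwf) summed to 7.49 to 9.41 CPM in mock and 9.31 to 11.0 CPM in BMH21. Macrophage markers (5 of 8, led by Csf1r and Ptprc) summed to 6.51 to 7.49 CPM in mock and 6.05 to 6.70 CPM in BMH21. No marker in the table was at 0 counts in all 4 libraries. The part of these other cell types in the changes below was not tested.

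In mock cells a few genes held most of the set's transcript. Levels between genes are compared as CPM per kilobase of exon. The exons of all annotated transcripts of a gene were merged for this, and ranks and ratios between genes depend on that length. Gstm5, a mu-class glutathione transferase, stood first at 816 CPM per kb, followed by Txnrd3 at 282, Gpx4 at 266 and Prdx6b at 198 (means of 2 mock libraries). Txnrd3 is the thioredoxin-glutathione reductase of male germ cells, Gpx4 the selenoenzyme that reduces lipid hydroperoxides and later becomes a structural protein of sperm, and Prdx6b a close relative of the peroxiredoxin Prdx6. These 4 genes made up 74.1% and 74.2% of the summed level per kb in the mock libraries and 73.6% and 73.7% in the BMH21 libraries. The next were Glrx3, a cytosolic glutaredoxin of iron-sulfur handling, at 77.6 CPM per kb, Txnl4b at 72.3, Gsto2 and Prdx5 at 70.1 each, Txndc12 at 43.0 and Txnip at 40.1. Glutathione synthesis genes were far lower, with Gclm at 5.04, Gclc at 4.82 and Gss at 1.43 CPM per kb. At the lower end, 15 of the 55 genes were under 1 CPM in every library. Cat, which encodes catalase, had 0 and 3 counts in mock and 9 and 14 in BMH21. Nqo1, a quinone reductase often used as an NRF2 readout, had 8 and 4 counts in mock and 8 and 8 in BMH21, and Msrb1, a methionine sulfoxide reductase, had 6 and 7 in mock and 4 and 6 in BMH21.

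**Figure D1:**
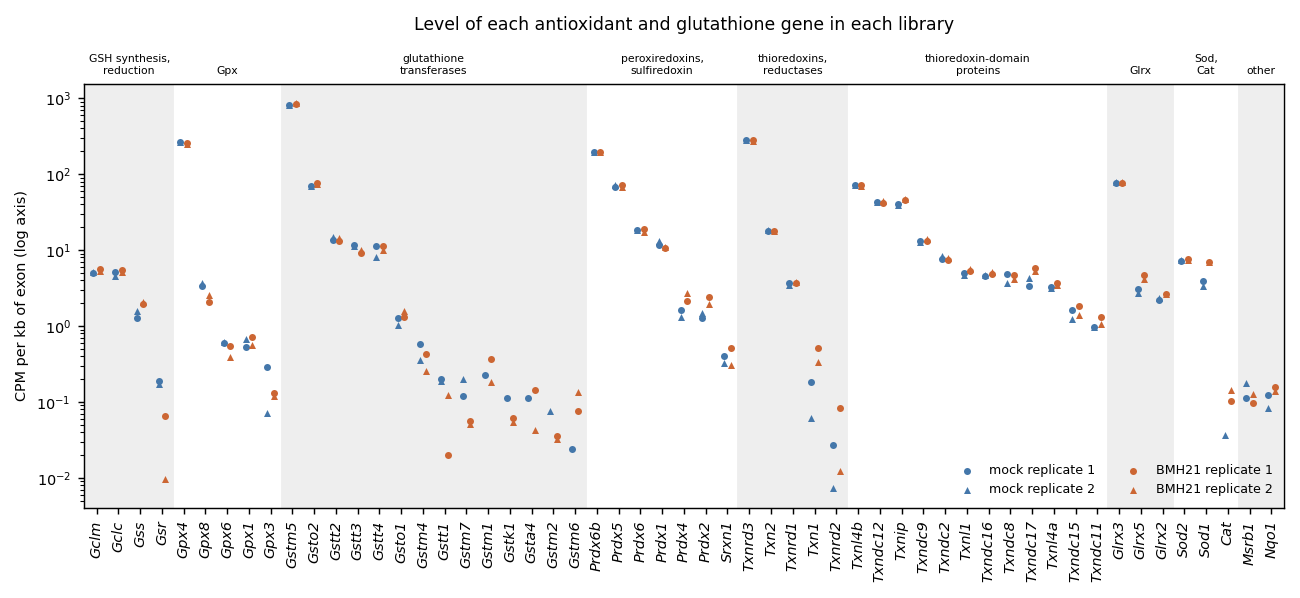
Level of each gene in each of the 4 libraries as CPM per kb of exon on a log axis, grouped by role and ordered by the mock mean, with 1 symbol per library and values of 0 not drawn. Gstm5, Txnrd3, Gpx4 and Prdx6b are the highest, at 816, 282, 266 and 198 CPM per kb in mock, and for them the symbols of the 4 libraries nearly coincide.

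Within families, 1 relative usually held most of the transcript. Prdx6b was 10.9 and 10.7 times as high per kb as Prdx6 in the mock libraries and 10.1 and 11.2 times in the BMH21 libraries. Txnrd3 exceeded the general cytosolic reductase Txnrd1 76.6 and 80.3 times in mock and 74.6 and 72.5 times in BMH21. Gsto2 exceeded its neighbour Gsto1 55.5 and 66.7 times in mock and 58.1 and 48.0 times in BMH21, so the preferred relative was the same in every library for these 3 pairs. The genomic clusters were uneven in the same measure. Of the 6 Gstm genes in the table, which lie within 149 kb of chromosome 3, Gstm5 gave 99.9% of the mock level per kb. The 4 Gstt genes within 63.3 kb of chromosome 10 were more evenly used, with Gstt2 at 39.8%.

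BMH21 changed a minority of the set, and mostly by little. The low-count filter left 45 of the 55 genes for testing, and edgeR's quasi-likelihood test with Benjamini-Hochberg adjustment over all 13793 tested genes called 9 of them higher and 4 lower after BMH21. That is 20.0% higher against 16.5% of all tested genes, and 8.89% lower against 12.5% of all tested genes. Both shares were near the background. The median log2 fold change of the 45 was 0.07, with quartiles of -0.03 and 0.20, beside a median of -0.00 over all tested genes. Of the 13 called genes, 5 changed by at least 1.5-fold, namely Sod1, Glrx5, Prdx2, Prdx4 and Gsr. Gsr passed the low-count filter through the mock group alone, which favoured genes lower in BMH21, so its direction carries little weight. The mock and BMH21 libraries did not overlap in 28 of the 45 tested genes (62.2%) and in 60.9% of all tested genes, so separate groups alone did not mark a gene out. The summed level of all 55 genes per kb was 2106 ± 13.7 (SD, n = 2) in mock and 2136 ± 7.03 (n = 2) in BMH21, a ratio of 1.01. In RNA from a sorted population, fewer cells of a type and less RNA per cell cannot be told apart.

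**Figure D2:**
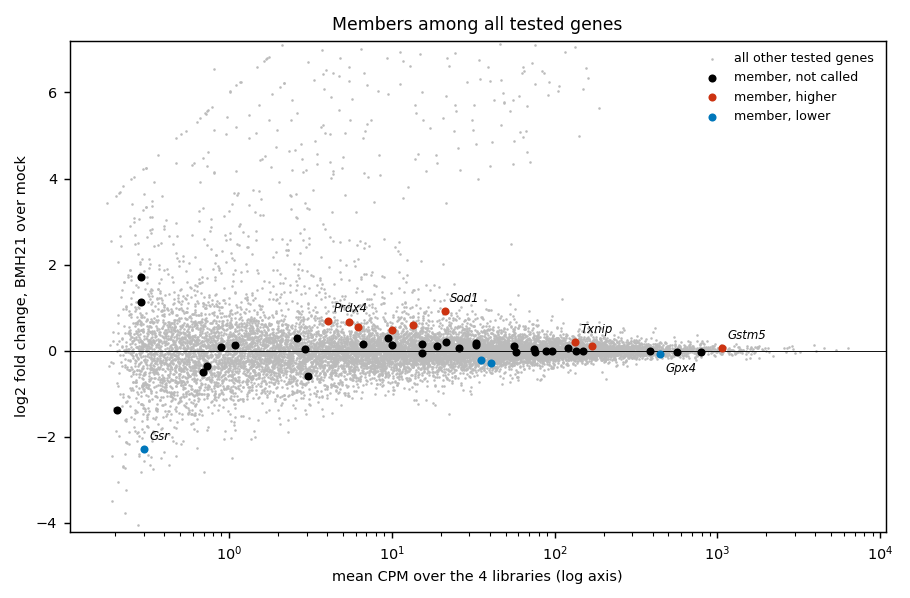
Log2 fold change of BMH21 over mock against the mean CPM over the 4 libraries on a log axis, with all 13793 tested genes in the background and the set's genes marked; 17 genes lie outside the plotted range. The abundant members lie near 0, and Sod1 stands out among the higher ones.

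For the abundant genes even small changes were measurable. Among the 32 tested genes that were not called, 14 had a 95% interval within 1.2-fold in either direction. A further 10 genes, Nqo1, Msrb1, Cat, Gpx3, Gstk1, Gsta4, Gstm2, Gstm6, Gstm7 and Txnrd2, were too low to be tested. None of these 10 exceeded 0.524 CPM in any library, and the main test gives no value for a change in them.

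Sod1 showed the clearest change. Sod1 encodes the copper- and zinc-dependent superoxide dismutase of the cytosol and lies at chr16:90220754-90226329 (GRCm38). Its levels were 15.6 and 13.5 CPM in the mock libraries and 27.7 and 28.0 CPM in the BMH21 libraries. Both BMH21 libraries stood far above both mock libraries, and the BMH21 pair was nearly equal. From 14.6 ± 1.48 CPM to 27.8 ± 0.275 CPM (SD, n = 2 each) the fitted change was 1.90-fold, a log2 fold change of 0.93 ± 0.10 (SE, edgeR adjusted p = 3.45e-12). Its call held in all 11 alternative analyses, with log2 fold changes from 0.83 to 1.04. Its neighbours on the chromosome, Tiam1, with a log2 fold change of 0.03, and Hunk, with 0.02, were not called, and Scaf4 was called lower at -0.11.

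Sod2, the manganese enzyme of mitochondria, gave a different picture. It was at 71.4 and 75.3 CPM in mock and at 76.8 and 74.7 CPM in BMH21, and the groups overlapped. The log2 fold change was 0.05, with a 95% interval from -0.06 to 0.15. Per kb, Sod2 exceeded Sod1 1.81 and 2.21 times in the mock libraries and 1.10 and 1.06 times in the BMH21 libraries. The gap between the mitochondrial and the cytosolic enzyme was therefore smaller in both BMH21 libraries. The size of each ratio depends on the merged exon lengths of the genes, while the relative difference between libraries does not. The summed level of the dismutases and catalase was 11.0 CPM per kb in mock and 14.7 in BMH21.

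**Figure D3:**
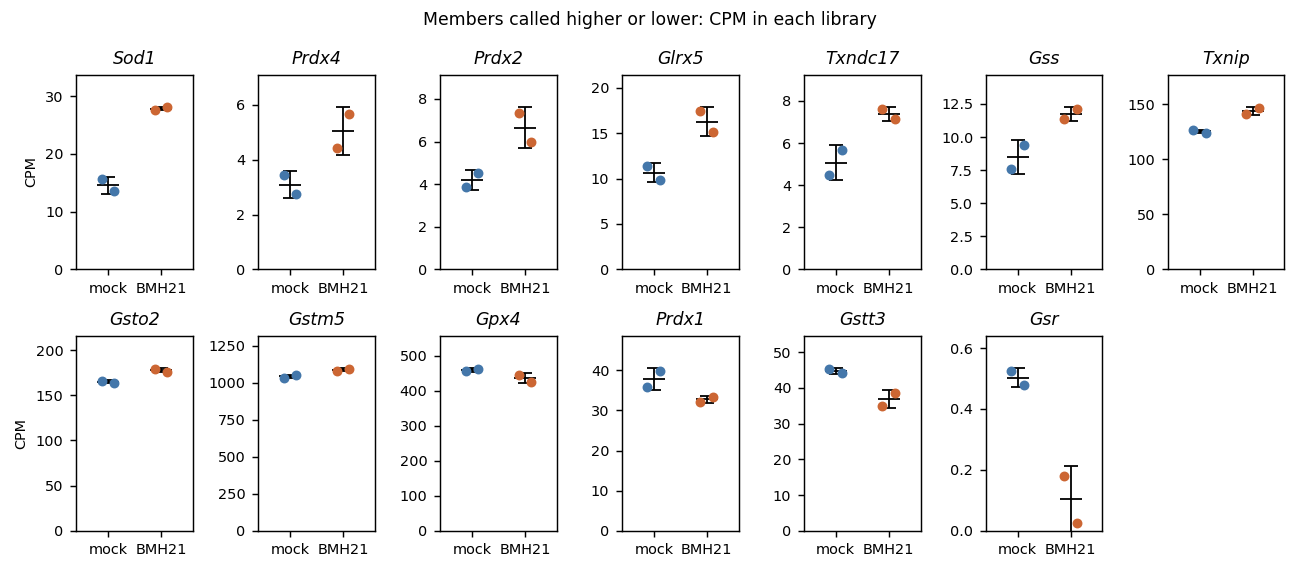
CPM in each library for the 13 called genes, 1 panel each with its own axis from 0, with points for libraries, a long horizontal line for the group mean and error bars for the SD (n = 2). Sod1 is at 13.5 and 15.6 CPM in mock and at 27.7 and 28.0 CPM in BMH21, while the panels of Gstm5, Gpx4 and Gsto2 show means of nearly equal height.

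Of the 4 genes of glutathione synthesis and recycling, neither ligase subunit was called and the synthetase was higher. The reductase was called lower, but it passed the low-count filter through the mock group alone. The catalytic subunit Gclc was at 19.3 and 17.0 CPM in mock and at 20.5 and 19.1 CPM in BMH21, a log2 fold change of 0.12. The regulatory subunit Gclm was at 31.3 and 32.1 CPM in mock and at 35.7 and 33.5 CPM in BMH21, a log2 fold change of 0.13. The BMH21 libraries of Gclm lay above its mock libraries, while the Gclc groups overlapped. Gss, which adds glycine in the last step and lies at chr2:155563181-155592810, was at 7.58 and 9.38 CPM in mock and at 11.4 and 12.1 CPM in BMH21. Both BMH21 libraries were above both mock libraries, by a log2 fold change of 0.48 ± 0.14 (edgeR adjusted p = 0.00456), and without mock replicate 1 the value was 0.33 and no longer called. Exons of Acss2 and of 2 antisense genes overlap Gss on the other strand, and the use of strand in the counting was not given in the sources used here.

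Gsr was near the counting limit. It lies at chr8:33652523-33698163 and had 22 and 15 counts in the mock libraries and 6 and 1 in the BMH21 libraries, or 0.524 and 0.480 CPM against 0.181 and 0.027 CPM. The groups did not overlap, and the fitted log2 fold change was -2.28 ± 0.85 (edgeR adjusted p = 0.0357). It passed the low-count filter through the mock group alone, which favoured genes lower in BMH21, so its direction carries little weight. Removal of mock replicate 1 (-2.20), of mock replicate 2 (-2.33) or of BMH21 replicate 2 (-1.46) ended the call, as did testing without the filter (-2.27) and with the replicate block (-2.35). Without BMH21 replicate 1 the value was -4.06.

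Among the glutathione peroxidases, the abundant Gpx4 was slightly lower. It lies at chr10:80047166-80056439 and was at 455 and 462 CPM in mock and at 446 and 426 CPM in BMH21. The groups did not overlap, but the gap between them was smaller than the gap within the BMH21 pair, and the log2 fold change was -0.07 ± 0.03 (edgeR adjusted p = 0.0314). That call was lost with DESeq2 (-0.07), and also when mock replicate 1 (-0.08), mock replicate 2 (-0.06) or BMH21 replicate 2 (-0.04) was left out. Of its 75-base exon stretches, 29.8% also occur in pseudogene copies such as Gpx4-ps2, so reads may be split among them. Gpx8, a peroxidase of the endoplasmic reticulum, was at 3.58 and 3.81 CPM in mock and at 2.20 and 2.70 CPM in BMH21. Its log2 fold change of -0.58 came with an adjusted p of 0.0583 in edgeR and was called lower under upper quartile scaling (-0.63) and a stricter filter (-0.59). Gpx1 and Gpx6 were at or below 1.03 CPM in every library and were not called.

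The transferases were led by small rises in abundant genes. Gstm5, at chr3:107895821-107898686, was at 1036 and 1051 CPM in mock and at 1081 and 1095 CPM in BMH21. The groups did not overlap, but the step was small, with a log2 fold change of 0.06 ± 0.02 (edgeR adjusted p = 0.0237). It was 0.01 and not called under upper quartile scaling, and its call was also lost without mock replicate 1 (0.05) or mock replicate 2 (0.07). Exons of 4933431E20Rik overlap Gstm5 on the other strand, and 7.47% of its 75-base stretches are shared with that gene. Gsto2, an omega-class enzyme that reduces dehydroascorbate, lies at chr19:47865534-47886324 and was at 166 and 164 CPM in mock and at 179 and 176 CPM in BMH21. Its groups also lay apart, by a log2 fold change of 0.11 ± 0.04 (edgeR adjusted p = 0.0190). Upper quartile scaling (0.06), DESeq2 (0.11) and the removal of mock replicate 1 (0.12), of mock replicate 2 (0.10) or of BMH21 replicate 1 (0.09) each ended this call.

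Gstt3, a theta-class transferase at chr10:75774115-75781414, went the other way. It was at 45.3 and 44.1 CPM in mock and at 35.1 and 38.7 CPM in BMH21. Both BMH21 libraries were lower, by 1.21-fold, with a log2 fold change of -0.28 ± 0.07 (edgeR adjusted p = 0.00188), and without BMH21 replicate 1 the value was -0.21 and not called. Gm20441, which overlaps Gstt3 on the same strand and shares 11.5% of its 75-base stretches, was also lower at -0.12. Reads in the overlap may have been counted for both genes, so this is not a separate observation. The cluster neighbours Gstt2, with a log2 fold change of -0.04, and Gstt4, with 0.13, were not called. The other 4 tested transferases, Gsto1, Gstm1, Gstm4 and Gstt1, were at or below 3.16 CPM in every library and were not called, and Gstt1 passed the filter through the mock group alone.

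The most abundant peroxiredoxins were not called. Prdx6b was at 573 and 568 CPM in mock and at 562 and 565 CPM in BMH21, a log2 fold change of -0.02 with a 95% interval from -0.07 to 0.03. The mitochondrial and peroxisomal Prdx5 was at 144 and 156 CPM in mock and at 153 and 144 CPM in BMH21, and its log2 fold change was -0.01. The groups of Prdx5 overlapped, and its sign turned when mock replicate 2 (0.04) or BMH21 replicate 2 (0.03) was left out. Prdx6b was called lower under upper quartile scaling alone, at -0.06. Prdx6 was not called either, at 84.2 to 92.2 CPM.

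Prdx2, a cytosolic peroxiredoxin at chr8:84969587-84974834, was at 3.88 and 4.54 CPM in mock and at 7.34 and 5.96 CPM in BMH21. Both BMH21 libraries were higher, by 1.58-fold, with a log2 fold change of 0.66 ± 0.18 (edgeR adjusted p = 0.00333). It was lost without mock replicate 1 (0.55) or BMH21 replicate 1 (0.51). Exons of Rnaseh2a and Junb overlap Prdx2 on the other strand. Rnaseh2a was called higher, with a log2 fold change of 0.06 (edgeR adjusted p = 0.0332). Junb, with -1.71, was not called (edgeR adjusted p = 0.0751). Prdx1, the more abundant cytosolic relative of Prdx2 at chr4:116685544-116700822, was lower, at 35.9 and 39.7 CPM in mock and 32.1 and 33.4 CPM in BMH21. The groups did not overlap, and the log2 fold change was -0.20 ± 0.08 (edgeR adjusted p = 0.0370). DESeq2 (-0.21) did not call Prdx1, and the call was also lost when mock replicate 2 (-0.13), BMH21 replicate 1 (-0.18) or BMH21 replicate 2 (-0.24) was left out.

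Prdx4, the secretory-pathway peroxiredoxin, was the X-linked gene of the set and lies at chrX:155323918-155340754. X-linked genes are silenced at pachytene, and after BMH21 73.2% of the 343 tested X-linked genes were higher by the test, and their median log2 fold change was 4.19. Prdx4 was at 3.43 and 2.75 CPM in mock and at 4.44 and 5.67 CPM in BMH21. Both BMH21 libraries were higher, by 1.63-fold, with a log2 fold change of 0.70 ± 0.21 (edgeR adjusted p = 0.00669). The neighbouring genes Mbtps2 (4.55) and Yy2 (3.63) were called higher with larger log2 fold changes, and Acot9 (0.20) was not called. DESeq2 did not call Prdx4 (0.70), and its call was lost when mock replicate 2 (0.56) or BMH21 replicate 2 (0.51) was left out. The autosomal members alone had a median of 0.06.

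None of the 4 tested thioredoxins and thioredoxin reductases was called by edgeR, and 1 had an unadjusted p under 0.05, while DESeq2 also called 0. Txnrd3 was at 797 and 801 CPM in mock and at 787 and 770.1 CPM in BMH21. Both BMH21 libraries were lower, but the log2 fold change of -0.04 had a 95% interval from -0.08 to 0.01. Txnrd3 was called lower under upper quartile scaling (-0.08) and without BMH21 replicate 1 (-0.05). Txn2, the mitochondrial thioredoxin, was at 75.9 and 78.3 CPM in mock and at 76.0 and 75.4 CPM in BMH21, a log2 fold change of -0.03. The cytosolic Txn1 had 8 and 2 counts in mock and 18 and 13 in BMH21, passed the filter through the BMH21 group alone and had an adjusted p of 0.115 in edgeR.

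Among the 12 thioredoxin-domain proteins, 2 were higher (16.7%, against 16.5% of all tested genes) and 0 lower (against 12.5%). Txnip, an arrestin-fold protein that binds and inhibits thioredoxin, lies at chr3:96557957-96561883 and was at 126 and 124 CPM in mock and at 141 and 146 CPM in BMH21. The groups lay well apart, by 1.15-fold, with a log2 fold change of 0.20 ± 0.04 (edgeR adjusted p = 5.30e-05), and the call held in all 11 alternatives, from 0.15 to 0.22. Gm15441 overlaps it on the other strand. Txndc17, a cytosolic thioredoxin-like reductase at chr11:72207547-72210015, was at 4.48 and 5.66 CPM in mock and at 7.61 and 7.13 CPM in BMH21. Its groups did not overlap, and the log2 fold change was 0.55 ± 0.17 (edgeR adjusted p = 0.0102), a call that DESeq2 (0.54) did not make and that was lost when mock replicate 1 (0.38) or BMH21 replicate 1 (0.50) was left out.

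The most abundant thioredoxin-domain genes were not called. Txnl4b, a protein of the spliceosome family, was at 138 and 136 CPM in mock and at 138 and 133 CPM in BMH21. Txndc12, of the endoplasmic reticulum, was at 97.0 and 96.9 CPM in mock and at 95.2 and 98.8 CPM in BMH21. The log2 fold changes were -0.02 for Txnl4b and 0.00 for Txndc12, with overlapping groups in both. The germ-cell members Txndc2 and Txndc8, known from spermatids and sperm, were not called, with log2 fold changes of -0.04 and 0.04.

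Of the glutaredoxins, the mitochondrial Glrx5 was higher and the abundant Glrx3 was not called. Glrx5, which acts in iron-sulfur cluster transfer and lies at chr12:105032688-105042906, was at 11.4 and 9.89 CPM in mock and at 17.4 and 15.1 CPM in BMH21. Both BMH21 libraries stood above both mock libraries, by 1.52-fold, with a log2 fold change of 0.60 ± 0.12 (edgeR adjusted p = 4.31e-05). The call held in all 11 alternatives, from 0.50 to 0.72. Glrx3 was at 382 and 396 CPM in mock and at 381 and 394 CPM in BMH21, and its 95% interval ran from -0.06 to 0.05 on the log2 scale. Its groups overlapped, and the sign turned without mock replicate 2 or BMH21 replicate 1 (0.02 in both).

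**Figure D4:**
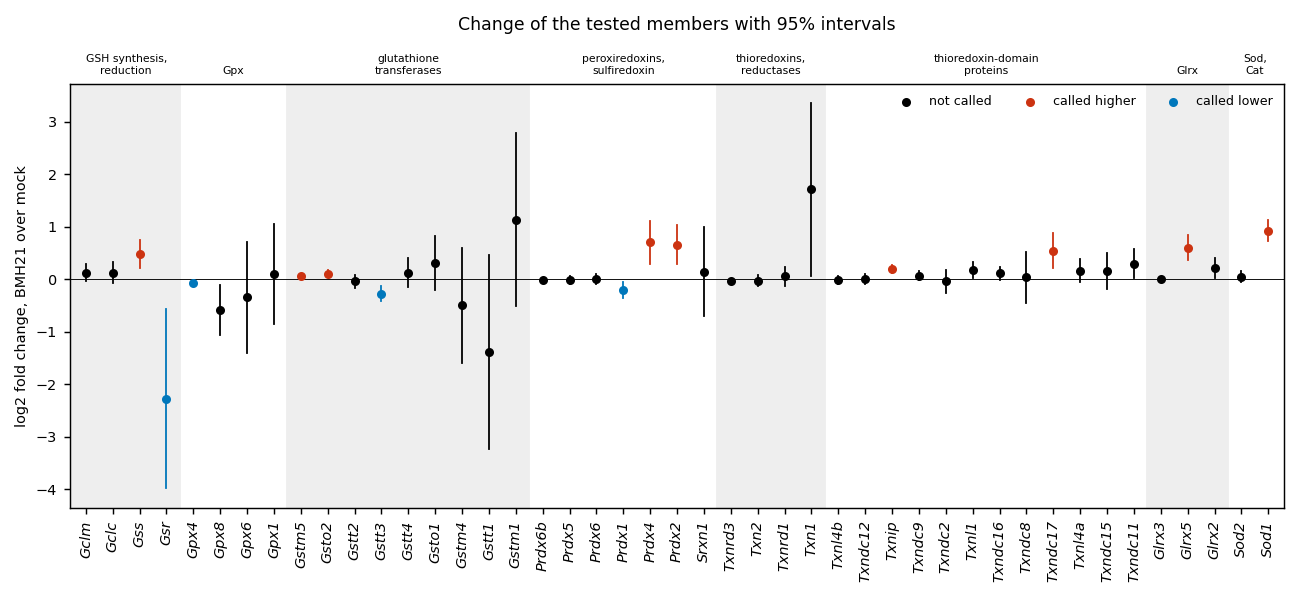
Log2 fold change of BMH21 over mock with 95% intervals for the 45 tested genes, grouped by role and coloured by call. Sod1 (0.93), Glrx5 (0.60), Prdx2 (0.66) and Prdx4 (0.70) lie above 0, Gsr (-2.28) has the widest interval of the called genes, and the intervals of abundant genes are narrow around 0.

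The wider pathway was read from lists of other genes, 74 of which were in the table. Of the 68 tested, 11 were higher and 10 lower (16.2% and 14.7%), near the shares over all tested genes, with a median log2 fold change of -0.05. The lists differed among themselves in their counts. They were chosen with earlier results of these data known, so the shares below are descriptions and no tests.

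Of the 9 tested NRF2 regulators, 5 were higher (55.6%, against 16.5% of all tested genes) and 0 lower (against 12.5%) by edgeR, with 0 lower also at an unadjusted p under 0.05 and by DESeq2. The 5 include Bach1, which passed the low-count filter through the BMH21 group alone. That route favoured genes higher in BMH21, so the direction of Bach1 carries little weight. As the list was chosen with earlier results known, its share is a description and no test. Nfe2l1, a relative of NRF2 known for driving proteasome genes, was at 60.6 and 57.8 CPM in mock and at 99.0 and 96.4 CPM in BMH21, with a log2 fold change of 0.72 ± 0.05 (edgeR adjusted p = 7.42e-19). Sqstm1, the autophagy adaptor that binds KEAP1, was at 59.4 and 58.7 CPM in mock and at 72.2 and 77.3 CPM in BMH21 (log2 fold change 0.34, edgeR adjusted p = 1.29e-06). In both genes the groups were well separated. Bach1, a repressor of ARE genes, had 6 and 0 counts in mock and 30 and 60 in BMH21, a fitted log2 fold change of 3.93 ± 0.73 (edgeR adjusted p = 1.25e-05) that was 8.43 without mock replicate 1 and 3.12 without mock replicate 2. The small Maf gene Mafg and the ubiquitin ligase scaffold Cul3 were the other called genes. The calls of Nfe2l1, Sqstm1, Mafg and Cul3 held in every alternative that tested them. Nfe2l2 itself was near the counting limit, at 0.787 and 0.416 CPM in mock and 1.45 and 0.567 CPM in BMH21, and was not called (edgeR adjusted p = 0.357). Keap1, its cytoplasmic inhibitor, was at 93.3 and 98.5 CPM in mock and 90.1 and 94.1 CPM in BMH21 and was not called (edgeR adjusted p = 0.431).

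Of the 9 tested genes of selenoprotein synthesis, which Gpx4 and the thioredoxin reductases need, 3 were higher (33.3%, against 16.5% of all tested genes) and 4 lower (44.4%, against 12.5%). The selenocysteine insertion factor relative Secisbp2l rose from 20.95 and 23.4 CPM to 37.6 and 35.8 CPM (log2 fold change 0.73, edgeR adjusted p = 7.33e-11). Sepsecs, which completes selenocysteine on its tRNA, rose from 59.8 and 67.2 CPM to 84.4 and 85.0 CPM (0.42, edgeR adjusted p = 3.48e-09). Sephs2, which makes the selenium donor, fell from 353 and 356 CPM to 315 and 302 CPM (-0.20, edgeR adjusted p = 5.72e-08). The calls of these 3 genes held in all 11 alternatives.

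Of the 12 tested genes of glutathione precursors and turnover, 2 were higher and 2 lower (16.7% each, against 16.5% and 12.5% of all tested genes). DESeq2 called 1 higher and 1 lower. Cth, which makes cysteine from cystathionine, fell from 4.98 and 3.94 CPM to 2.17 and 1.57 CPM (log2 fold change -1.26, edgeR adjusted p = 2.62e-05). Cndp2, a dipeptidase that releases cysteine from the cysteinyl-glycine left by glutathione breakdown, rose from 60.1 and 62.5 CPM to 71.4 and 77.3 CPM (0.28, edgeR adjusted p = 4.92e-05). Slc3a2, the heavy chain of the cystine transporter, rose from 81.8 and 71.7 CPM to 86.0 and 84.9 CPM (0.15, edgeR adjusted p = 0.0250). Of the 13 NADPH-supply genes, 2 were lower (15.4%, against 12.5% of all tested genes) and 0 higher by edgeR. At an unadjusted p under 0.05 there were 4 lower and 2 higher, and DESeq2 called 2 lower and 0 higher. Taldo1, of the pentose phosphate pathway, fell from 6.32 and 5.66 CPM to 2.84 and 3.40 CPM (-0.94, edgeR adjusted p = 9.75e-05), and Nnt, the mitochondrial transhydrogenase, from 109.9 and 108 CPM to 99.0 and 98.9 CPM (-0.14, edgeR adjusted p = 0.0128). The table holds 2 overlapping models of Nnt, with 4610 and 4572 counts in mock replicate 1, and the 1 with more counts was read. Cth and Taldo1 showed the larger falls of these 5 genes, and Nnt and Slc3a2 the smaller differences. The calls of Cth, Cndp2 and Taldo1 held in every alternative that tested them. That of Nnt was lost without either mock replicate 1 (-0.13) or mock replicate 2 (-0.15). That of Slc3a2 was lost without mock replicate 2 (0.06) or BMH21 replicate 1 (0.14), under upper quartile scaling (0.11) and with DESeq2 (0.15). The second lower gene of the precursor list, Chac2, lost its call with DESeq2 (-0.61) and with the replicate block (-0.63). It was also lost without mock replicate 1 (-0.28) or BMH21 replicate 1 (-0.25).

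Of the 17 tested genes of other thiol repair and metal handling, 1 was higher (5.88%, against 16.5% of all tested genes) and 2 were lower (11.8%, against 12.5%). Sesn1, a sestrin, fell from 40.9 and 39.7 CPM to 31.7 and 37.2 CPM (log2 fold change -0.22, edgeR adjusted p = 0.0202). Msra, a methionine sulfoxide reductase, fell from 3.62 and 4.16 CPM to 2.66 and 2.32 CPM (-0.64, edgeR adjusted p = 0.0320). Fth1, the ferritin heavy chain, rose from 80.0 and 74.4 CPM to 86.1 and 83.7 CPM (0.13, edgeR adjusted p = 0.0408). DESeq2 called 0 genes of this list in either direction, and each of the 3 edgeR calls was lost when certain single libraries were left out. For Sesn1 these were mock replicate 1 (-0.20) and BMH21 replicate 1 (-0.12), and for Msra mock replicate 1 (-0.74), mock replicate 2 (-0.54) and BMH21 replicate 2 (-0.55). For Fth1 they were mock replicate 2 (0.09), BMH21 replicate 1 (0.11) and BMH21 replicate 2 (0.15), and upper quartile scaling (0.09) ended the call as well. None of the 8 tested other glutathione transferases was called by edgeR or DESeq2, and 2 of them were lower at an unadjusted p under 0.05.

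**Figure D5:**
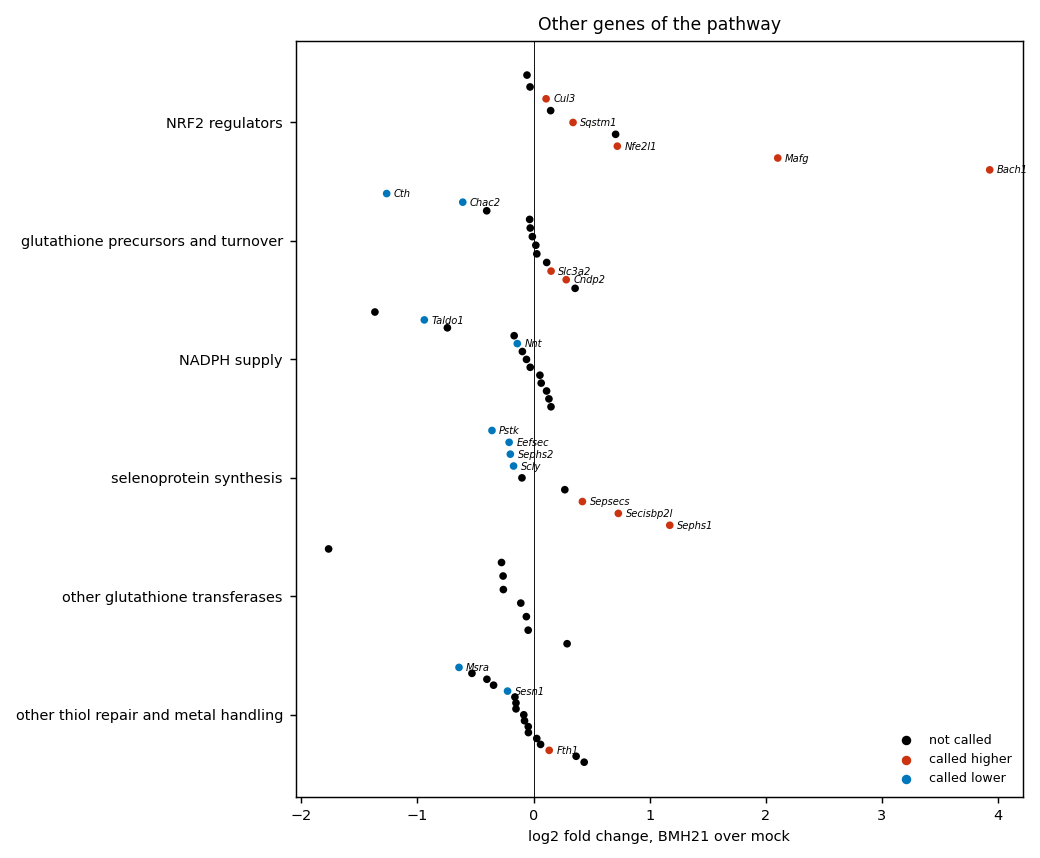
Log2 fold change of BMH21 over mock for the tested genes of each of the 6 lists of other pathway genes, 1 row per list, coloured by call. The NRF2 regulators called by the test lie above 0, and the genes of selenoprotein synthesis lie on both sides of it.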

How the data were processed

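RNA was extracted with TRIzol and made into libraries with a kit for stranded mRNA, per the labels' protocols. The submitters' processing notes name fastp, STAR, SAMtools, featureCounts, DESeq2 and mm10, without versions or settings. How strand and multi-mapping reads were handled was not given in the sources used here.

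The authors deposited 1 table with raw counts per gene and library, which entered every test. The authors also deposited size-factor-normalized signal, log2 fold changes, a Wald score and p-values, which are DESeq2 columns per the file headers and entered no test. Coordinates are those of GENCODE M21 on GRCm38, 1-based, matched by gene ID; positions in the deposited table were left aside.

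All genes of the table entered edgeR 4.0.16 under R 4.3.3 (filterByExpr at a minimum count of 10, TMM, quasi-likelihood F test, group alone), with Benjamini-Hochberg adjustment and a threshold of 0.05. The filter kept 13793 genes and removed 1940, and 5176 had an unadjusted p under 0.05. Levels are CPM with TMM-scaled library sizes, per kb of merged exons where genes are compared, with SD over 2 replicates. A SE is the log2 fold change divided by the square root of F. Within both groups the replicates differed beyond counting error (chi-square over degrees of freedom of 3.23 for mock, 3.78 for BMH21). With 2 replicates, p-values lean on a spread shared across genes. The labels call the replicates biological and say no more of their source.

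The members and lists were chosen with earlier results of these data known. Named with values are all called and X-linked members, the 2 most abundant of each role and marker list, up to 3 called genes with the smallest p of each pathway list, and Nfe2l2 and Keap1. Other genes were named after their values were seen. Alternatives were DESeq2 1.42.0, other scalings and filters, a replicate block and leaving out each library.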

Additional observations from a re-analysis of the deposited data

How the results depend on the processing

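Of the 13 called members, 3 (Sod1, Glrx5 and Txnip) kept their call in all 11 alternatives. Upper quartile scaling shifted all genes by a median of -0.05 on the log2 scale and turned 2282 higher and 1731 lower calls over all genes into 1805 higher and 2480 lower (42.1% higher instead of 56.9%). It gave 7 members higher and 7 lower, with a median log2 fold change of 0.023, and 15 pathway genes lower. DESeq2 called 6 members higher and 1 lower, and 6 pathway genes lower. Over all genes its calls were also fewer, at 1772 higher and 1184 lower. Leaving out 1 library gave 5 to 9 members higher, 1 to 3 lower, 9 to 11 pathway genes higher, 5 to 10 lower, and a median of 0.027 to 0.088. A lone library in a group was assumed to vary like the other group. Same-numbered replicates deviated together with a correlation of 0.01, so the numbers were not taken as pairs. With the replicate block 9 members were higher and 3 lower, with a median of 0.07, and over all genes 2189 were higher and 1595 lower. Txndc12 turned negative with RLE size factors (-0.00055), upper quartile scaling (-0.044) and the stricter filter (-0.0056), and ranged from -0.029 to 0.026 when a library was left out. Of the uncalled genes, the same ranges were -0.065 to 0.044 for Prdx5, -0.032 to 0.020 for Glrx3 and -0.041 to 0.0070 for Txnl4b. The causes were not tested. Depth limits the 15 genes under 1 CPM, where a change such as that of Gsr rests on few counts.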
